A study of Saccharomyces cerevisiae with 2 samples.

Results

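PHO5 and PHO3 are neighbouring genes on chromosome 2 of budding yeast (Saccharomyces cerevisiae) that both encode secreted acid phosphatases, and their chromatin was described through the nucleosome calls with centres from 427000 to 433000. This stretch of 6 kb held 61 of the 96154 calls deposited, with 33 of 48135 in the fun30 deletion library and 28 of 48019 in the wild-type library. All of them are accounted for below. PHO5 (YBR093C) was taken to span about 429.5 to 431.0 kb, its promoter about 431.0 to 431.8 kb, and PHO3 (YBR092C) about 427.7 to 429.1 kb. These bounds are rounded to 0.1 kb, so no distance from a start codon is given.

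The mutant cells lacked FUN30, which encodes an ATP-dependent enzyme that slides and remodels nucleosomes, and the cells they were set against were wild type. Both were of strain BY4741, a haploid laboratory strain that is auxotrophic for histidine, leucine, methionine and uracil, and both were grown in YPD, a rich medium that supplies phosphate. Cells were fixed with paraformaldehyde, crude nuclei were treated with micrococcal nuclease, an enzyme that digests linker DNA, and fragments of mononucleosome size were gel-purified for sequencing. There was 1 library per genotype, so no value below has a replicate error and no test between genotypes was made.

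PHO5 is a classical model of gene regulation through chromatin. When phosphate is plentiful its promoter is packed into positioned nucleosomes and the gene is repressed. When phosphate runs short the activator Pho4 binds upstream sites and the promoter nucleosomes are removed. PHO3 encodes a closely related enzyme that is repressed by thiamine rather than by phosphate. Both genes are read towards lower coordinates, so the stretch between them lies upstream of PHO3, and the PHO5 promoter lies between PHO5 and its neighbour PBY1 (YBR094W), which is read the other way. PBY1 encodes a protein of cytoplasmic mRNA-processing bodies. On the lower side PHO3 is followed by TIM12 (YBR091C), which encodes a component of the mitochondrial protein import machinery.

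Each call has a centre, a width and an occupancy signal, which is a deposited value in the authors' own units and not a read count. The median occupancy over chromosomes 1 to 16 was 0.210 in both libraries and the median width 113 bp in both. The quartiles of occupancy were also nearly equal, at 0.133 and 0.370 in both. How the signal was scaled is not stated, so an occupancy ratio between the libraries is relative to that scaling. The lowest occupancy was 0.0824 in both, so weaker nucleosomes are not listed, and how deeply either library was sequenced is unknown. Culture, digestion and library preparation cannot be told apart from the genotype in a difference between these libraries. No source used here says how reads that fit both PHO3 and PHO5 were placed, so calls in these related genes are uncertain to that extent, and sharing of reads was not tested. As a check of the genotype, the longest run of wild-type calls with no mutant partner held 18 calls on chromosome 1, the chromosome of FUN30, with 0 mutant calls between its ends.

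The calls formed the same outline in both libraries: a block of calls over PHO3, a stretch with no call between the genes, and a block over PHO5 and its promoter. In the fun30 deletion library 3 calls lay below PHO3, 10 in PHO3, 0 between the genes, 10 in PHO5, 5 in its promoter and 5 beyond it. In wild type these numbers were 3, 9, 0, 9, 5 and 2. Every wild-type call had a counterpart within 73 bp in the mutant, and the mutant had 5 calls without one. With pairing up to 50 bp, 7 mutant calls and 2 wild-type calls had none.

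**Figure D1:**
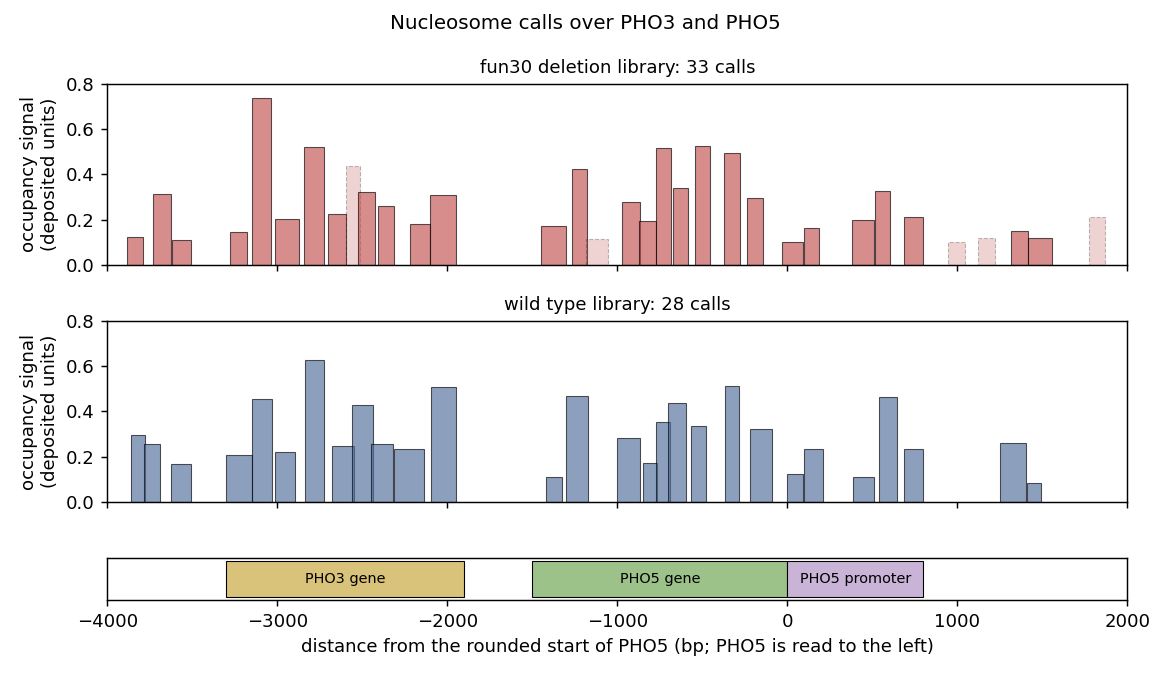
Nucleosome calls over PHO3 and PHO5 in the fun30 deletion library (upper panel, 33 calls) and the wild-type library (middle panel, 28 calls), with position in bp from the rounded start of PHO5 on the horizontal axis and the deposited occupancy signal as the height of each box. Box widths are call widths, pale dashed boxes are the 5 calls without a partner in the other library, and the bars in the lowest panel mark the regions; both libraries have no call between the genes.

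Summed occupancy over the PHO5 promoter was 1.01 in the fun30 deletion library and 1.17 in wild type, a log2 ratio of -0.21. Stretches of 800 bp laid end to end along all chromosomes had a median log2 ratio of 0.01 with quartiles of -0.23 and 0.26, so the promoter's value lay between those quartiles. The promoter held 5 calls in both libraries, against a median of 3 in such stretches. Calls covered 63.4% of the promoter in the mutant and 67.9% in wild type.

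The promoter calls are described by distance from the gene, starting at its PHO5 end. The nucleosome at the edge of the gene had an occupancy of 0.102 at 431030 in the mutant and 0.126 at 431042 in wild type. The next had 0.165 at 431140 in the mutant and 0.234 at 431153 in wild type. Both lay slightly closer to PHO5 in the mutant, by 12 and 13 bp, which is below the 20 bp used here to call a nucleosome shifted.

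A gap followed, with 305 bp between the centres of its flanking calls in the mutant and 295 bp in wild type. The nucleosome beyond the gap had an occupancy of 0.199 at 431445 in the mutant and 0.109 at 431448 in wild type. Its log2 ratio of 0.86 was the highest of the 28 pairs, and it was the only promoter nucleosome with a higher occupancy in the mutant library. Its centre differed by only 3 bp. The wild-type occupancy of 0.109 in this ratio was above only 13.9% of the calls of its library.

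The strongest promoter nucleosome had an occupancy of 0.328 at 431559 in the mutant and 0.463 at 431592 in wild type. It was the only promoter nucleosome that was shifted, by 33 bp towards PHO5. The distance to the nucleosome before it was 114 bp in the mutant and 144 bp in wild type, and the distance to the one after it 182 bp in the mutant and 149 bp in wild type. That outermost nucleosome had the same centre in both libraries, 431741, with an occupancy of 0.212 in the mutant and 0.236 in wild type. The promoter therefore kept its 5 positions, with 1 of them moved relative to 2 neighbours that differed by 3 and 0 bp.

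Over the PHO5 gene, summed occupancy was 3.36 in the fun30 deletion library and 3.01 in wild type, a log2 ratio of 0.16. The sums followed the number of calls, which was 10 in the mutant and 9 in wild type, since the mean occupancy per call was 0.336 in the mutant and 0.334 in wild type. Stretches of 1500 bp had a median of 6 calls in both libraries. Calls covered 70.2% of the gene in the mutant and 61.1% in wild type.

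At the end of the PHO5 reading frame, the first nucleosome had an occupancy of 0.171 at 429624 in the mutant and 0.113 at 429627 in wild type. The next was strong in both, with 0.422 at 429776 in the mutant and 0.468 at 429764 in wild type. In wild type a gap of 300 bp between centres followed, and in the mutant a weak call at 429881, with an occupancy of 0.117 and no partner, lay inside it. This call was above only 17.4% of the calls of its library.

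The middle of PHO5 held closely packed calls that overlapped or nearly touched. Their centres were at 430081, 430178, 430271 and 430372 in the mutant and at 430064, 430192, 430269 and 430351 in wild type. The shortest distance between them was 93 bp in the mutant and 77 bp in wild type, and only 0.552% of neighbouring calls in the wild-type library were as close as that. A nucleosome core wraps more DNA than this, so complete nucleosomes at both places of such a pair cannot share a DNA molecule. The strongest of this group was the call at 430271 in the mutant, with 0.518, and the one at 430351 in wild type, with 0.439. The mutant call at 430271 was paired with the wild-type call at 430269, which had 0.355. The mutant call at 430372, paired with the wild-type call at 430351, had 0.341.

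Towards the start of PHO5, the call at 430500 in the mutant had an occupancy of 0.526 and was the strongest mutant call of the gene, against 0.336 at 430478 in wild type. The strongest PHO5 call of wild type was the next one, at 430674 with 0.511, which had 0.492 at 430676 in the mutant. The last call inside the gene had 0.295 at 430808 in the mutant and 0.324 at 430844 in wild type. Of the 9 pairs in PHO5, 3 were shifted: 2 by 21 and 22 bp towards the promoter, and this last one by 36 bp away from it. Its distance to the first promoter nucleosome was 222 bp in the mutant and 198 bp in wild type.

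The stretch between the genes, upstream of PHO3, had 0 calls in both libraries. Its flanking nucleosomes were at 428976 and 429624 in the mutant and at 428977 and 429627 in wild type. The distance between these centres was 648 bp in the mutant and 650 bp in wild type. Distances at least as long made up 4.43% of neighbouring calls in the mutant library and 4.49% in the wild-type library. A stretch without calls can hold free DNA, nucleosomes below the lowest listed occupancy or sequence to which reads were not placed, and these were not told apart. The PHO5 promoter and the stretch upstream of PHO3 thus differed within each library, with 5 calls in the promoter and 0 between the genes. Their lengths differ as well, with 800 bp for the promoter and 400 bp between the genes, so the counts are not directly comparable.

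**Figure D2:**
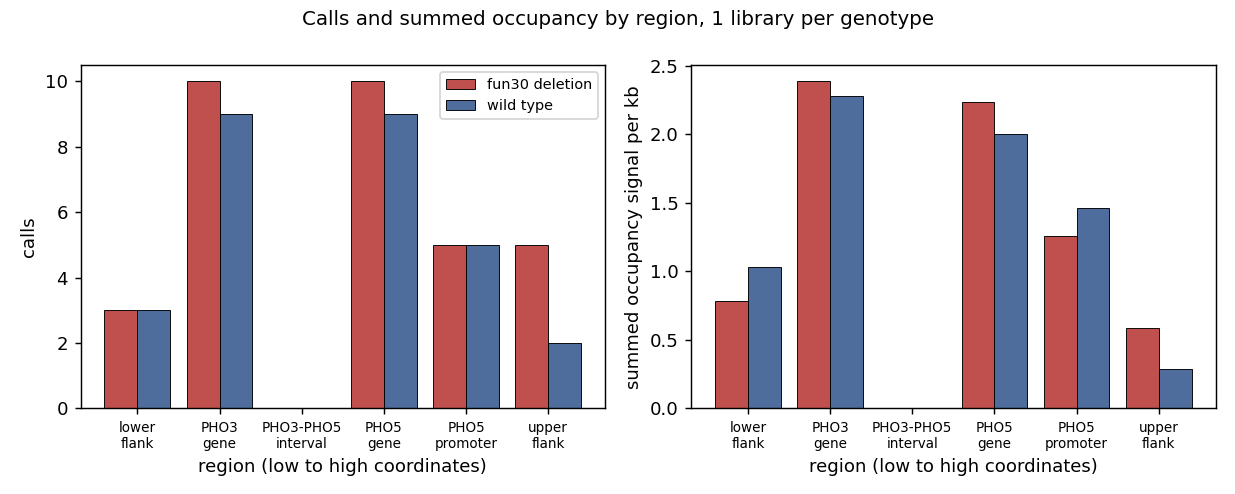
Number of calls (left) and summed occupancy signal per kb (right) in the regions of the stretch, ordered from low to high coordinates, with the fun30 deletion library left of the wild-type library in each pair of bars and 1 library per genotype. The promoter has 5 calls in both libraries, the stretch between the genes 0, and the upper flank 5 in the mutant and 2 in wild type.

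Over the PHO3 gene, summed occupancy was 3.34 in the fun30 deletion library and 3.19 in wild type, a log2 ratio of 0.07. The mean per call was 0.334 in the mutant and 0.354 in wild type, so the direction depends on whether sums or means are taken. Stretches of 1400 bp had a median sum of 1.45 in the mutant and 1.43 in wild type. PHO3 was therefore more densely occupied than the median stretch in both libraries, and so was PHO5. Stretches of the length of PHO5 had a median sum of 1.58 in the mutant and 1.56 in wild type. Sums at least as large as at PHO3 were found in 10.9% of stretches in the mutant and 12.4% in wild type. At PHO5 these shares were 12.9% in the mutant and 16.8% in wild type.

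The nucleosomes towards the end of PHO3 had nearly the same places in both libraries. Their centres were at 427774, 427907, 428055 and 428216 in the mutant and at 427776, 427912, 428046 and 428216 in wild type, with differences of 0 to 9 bp. The call at 427907 was the strongest of all in the mutant, with an occupancy of 0.737, against 0.455 in wild type. The call at 428216 was the strongest of all in wild type, with 0.626, against 0.521 in the mutant. These occupancies were above 92.2% of mutant calls and 89.4% of wild-type calls.

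In the middle of PHO3 the calls were arranged differently. In the mutant 5 calls lay at 428351, 428443, 428522, 428640 and 428838, and in wild type 4 lay at 428388, 428502, 428618 and 428773. All 4 pairs were shifted, the lowest by 37 bp towards the end of the gene and the others by 20, 22 and 65 bp towards its start. The additional mutant call, at 428443, had an occupancy of 0.435 and was above 80.3% of the calls of its library. It was not far from wild-type nucleosomes, since the nearest one was 55 bp away, at 428388, but that one had a closer partner. With this call the shortest distance between neighbouring centres in PHO3 was 79 bp in the mutant, against 114 bp in wild type.

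The nucleosome at the start of PHO3 returned to the same place, at 428976 in the mutant and 428977 in wild type. Its occupancy was 0.309 in the mutant and 0.508 in wild type, a log2 ratio of -0.72. It borders the long stretch without calls.

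PHO3 also differed in call widths. In wild type all 9 calls were at or above the library's median width, running from 113 to 174 bp with a mean of 134 bp. In the mutant 5 of 10 calls were, and widths ran from 82 to 152 bp with a mean of 112 bp. Of the 9 pairs, 5 were narrower in the mutant by 20 bp or more and 0 were wider by as much. Over all 40794 pairs of chromosomes 1 to 16, 20.6% were called narrower and 19.9% wider by this rule. The narrowed calls were those at 427774, with 100 bp in the mutant and 152 bp in wild type, and the 4 shifted ones, of which the call at 428838 had 119 bp in the mutant and 174 bp in wild type. Widths were compared after their values had been seen. In PHO5 the mean width was 103 bp in both libraries, with 3 pairs narrower and 1 wider by 20 bp or more.

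Below PHO3, towards TIM12, 3 nucleosomes were found in both libraries. The outermost, at 427162 in the mutant and 427182 in wild type, had an occupancy of 0.124 in the mutant and 0.295 in wild type. With a log2 ratio of -1.25 it was the only pair with a 2-fold difference, and its mutant value was 0.419 of its wild-type value. The next was displaced by 59 bp, lying at 427320 with 0.315 in the mutant and at 427261 with 0.257 in wild type. The pair of wild-type centres was 79 bp apart and the pair of mutant centres 158 bp. The remaining one was at 427437 with 0.110 in the mutant and at 427434 with 0.169 in wild type.

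Beyond the PHO5 promoter, on the side of PBY1, the mutant library had 5 calls and the wild-type library 2. In wild type the distance from the outermost promoter nucleosome to the next call was 586 bp, and only 5.92% of neighbouring calls in that library were as far apart. In the mutant this gap held 2 weak calls, at 431995 with an occupancy of 0.103 and at 432173 with 0.118, and the next call from the promoter nucleosome was 254 bp away. They were above 10.7% and 18.1% of the calls of their library, close to the lowest deposited values. A further mutant call at 432821 had an occupancy of 0.212, above 50.2% of calls, and the nearest wild-type call was 301 bp away. The 2 pairs of this flank were both displaced to higher coordinates. The first had 0.151 at 432366 in the mutant and 0.260 at 432327 in wild type. The other had 0.119 at 432484 in the mutant and 0.0826 at 432450 in wild type, which is near the lowest listed value. Summed occupancy of this flank was 0.702 in the mutant and 0.343 in wild type, and the 3 mutant calls without a partner summed to 0.432.

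Across the whole stretch, 12 of 28 pairs were shifted by 20 bp or more, which is 42.9% with an exact (Clopper-Pearson) 95% interval of 24.5 to 62.8%. Over all pairs of chromosomes 1 to 16 the share was 26.6%, inside that interval. The interval covers counting error over pairs only, and neighbouring nucleosomes are not independent. The median absolute displacement was 13.5 bp here and 9 bp over all pairs. Shifts went to higher coordinates, against the direction in which both genes are read, in 8 pairs and to lower coordinates in 4. Over all pairs 5473 went to higher and 5379 to lower coordinates. By region, 4 of 9 pairs were shifted in PHO3, 3 of 9 in PHO5, 1 of 5 in the PHO5 promoter, 2 of 3 below PHO3 and 2 of 2 beyond the promoter.

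Shifted pairs were also counted by occupancy, in classes that hold few pairs of this stretch each. All pairs were put into 4 classes of equal size by the geometric mean of their occupancies. In the lowest class 1 of 5 pairs of the stretch was shifted, where 42.8% of all pairs were. In the class above it 3 of 8 were shifted, where 33.1% of all pairs were. In the next 7 of 9 were, where 21.9% of all pairs were, and in the highest 1 of 6, where 8.60% were. When only calls above the median occupancy of their library were paired, 8 of 16 pairs here were shifted, where 15.6% over all chromosomes were. The interval for these 8 of 16 was 24.7 to 75.3%. It covers counting error over pairs only, and neighbouring pairs are not independent, so it gives no test of an excess.

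**Figure D3:**
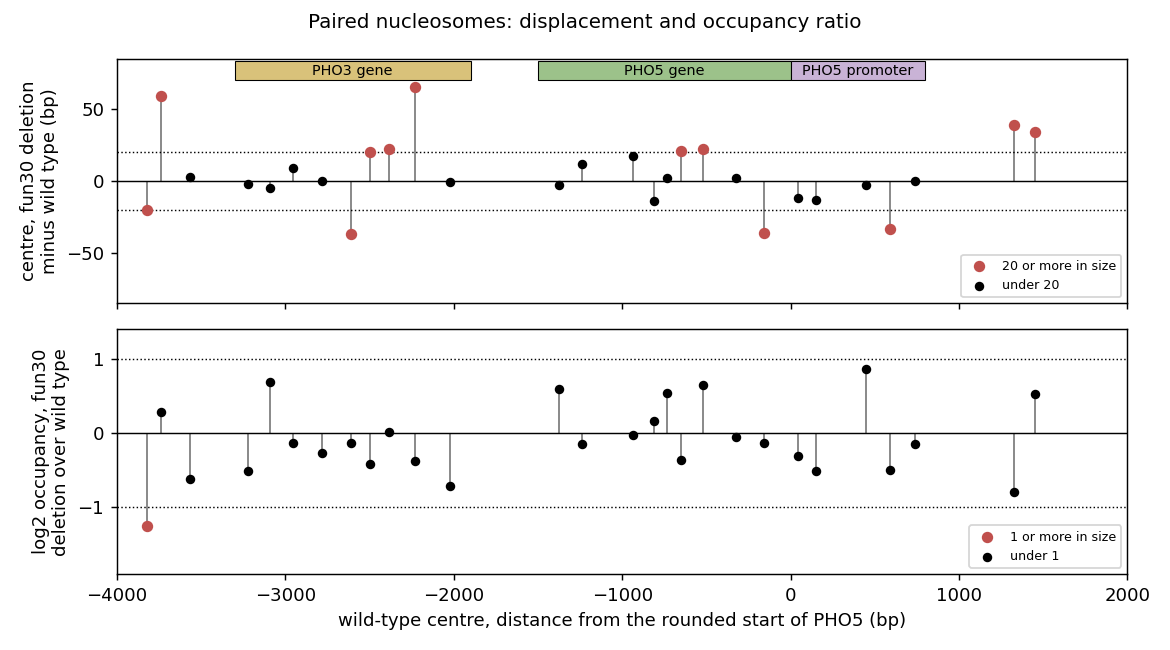
Displacement of the centre in bp (upper panel) and log2 ratio of occupancy (lower panel), fun30 deletion relative to wild type, for the 28 paired nucleosomes, by position of the wild-type centre in bp from the rounded start of PHO5. Dotted lines mark 20 bp and a 2-fold difference; 12 points pass the first and 1 the second, and the shifted pairs include 4 neighbours in the middle of PHO3.

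A 2-fold difference in occupancy was seen in 1 of 28 pairs, and in 4.87% of all pairs. A 1.5-fold difference was seen in 8 of 28, with 4 higher and 4 lower in the mutant, and in 22.8% of all pairs. The pairs that were higher by this measure were the PHO3 call at 427907, the PHO5 calls at 429624 and 430500 and the promoter call at 431445, with centres as in the mutant. Lower in the mutant by this measure were 2 calls below PHO3, the call at the start of PHO3 and the call at 432366. Of the 28 pairs, 9 had a higher and 19 a lower occupancy in the mutant. Over all 40794 pairs, 20615 had a higher and 20178 a lower occupancy in the mutant. The median log2 ratio was -0.14 here, against 0.01 over all pairs.

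Of the mutant calls 5 of 33, or 15.2%, had no partner, the same share as the 15.2% of all mutant calls that had none. Of the wild-type calls 0 of 28 had no partner, and 15.0% of all wild-type calls had none. The additional mutant calls were the strong one in PHO3, the weak one in PHO5 and the 3 towards PBY1. The mutant library thus had 5 more calls than wild type in the stretch, and 4.91% of the 1995 stretches of 6 kb along all chromosomes had a difference of that size or more in this direction. The direction turned with an occupancy filter. The mutant had 2 more calls when those below the lower quartile of each library were left out. Above the median it had 3 fewer, with 18 against 21 in wild type. The total occupancy of the stretch was 8.95 in the mutant and 8.43 in wild type. Its log2 ratio of 0.09 was within the quartiles of all such stretches, at -0.08 and 0.10.

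The median distance between neighbouring centres was 143 bp in the mutant and 149 bp in wild type, against 170 bp over all chromosomes in both. Distances from 140 to below 190 bp, the range of regular arrays, made up 7 of 32 in the mutant and 7 of 27 in wild type. These shares were 21.9% (9.28 to 39.97%) in the mutant and 25.9% (11.1 to 46.3%) in wild type, and over all chromosomes 31.5% in the mutant library and 29.3% in the wild-type library, inside both intervals. Distances under 100 bp numbered 4 in the mutant, or 12.5% (3.51 to 28.99%), and 3 in wild type, or 11.1% (2.35 to 29.2%). Over all chromosomes they made up 8.11% in the mutant library and 8.52% in the wild-type library, inside both intervals.

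Because PHO3 and PHO5 are related tandem genes, their nucleosomes were laid on each other. The centres in PHO3 were moved to higher coordinates by each offset from 1500 to 2200 bp, and a PHO3 call was counted as matched when a call of the same library lay within 20 bp. From the rounded bounds the genes are 1800 bp apart by their lower ends and 1900 bp by their upper ends. In the fun30 deletion library the most matches were 9 of 10, at offsets of 1845 to 1846 bp, and in wild type 7 of 9, at 1861 to 1868 bp. The median over the 701 offsets was 3 in the mutant and 2 in wild type, and more than 60 bp away from these peaks no offset gave more than 6 in the mutant or 5 in wild type. The best offsets thus fell between the distances of the gene ends in both libraries.

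**Figure D4:**
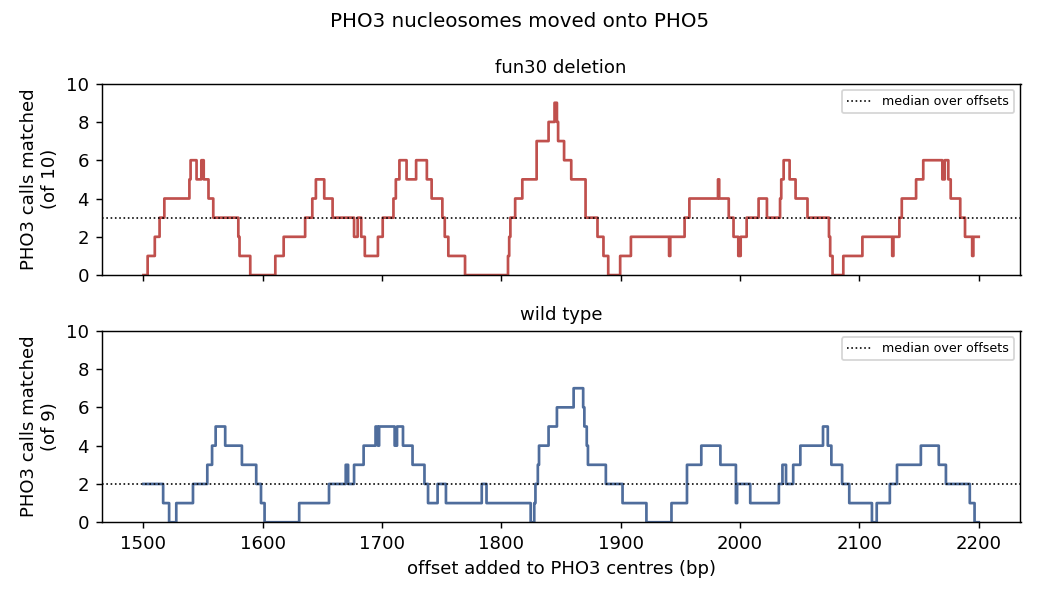
Number of PHO3 calls that have a call of the same library within 20 bp after their centres are moved by the offset on the horizontal axis (bp), for the fun30 deletion library (upper panel, 10 calls) and the wild-type library (lower panel, 9 calls). Dotted lines are medians over all offsets; the highest points are 9 at 1845 to 1846 bp in the mutant and 7 at 1861 to 1868 bp in wild type.

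Several nucleosomes of PHO3 and PHO5 matched closely. In the mutant the calls at 427774 and 429624 were 1850 bp apart, and so were those at 428522 and 430372. In wild type the calls at 427776 and 429627 were 1851 bp apart, those at 427912 and 429764 1852 bp, those at 428216 and 430064 1848 bp, and those at 428502 and 430351 1849 bp. At 1846 bp, an offset with the most matches over both libraries, 14 of 19 PHO3 calls matched, 9 in the mutant and 5 in wild type. The median over offsets was 5 of 19, and offsets more than 60 bp away gave up to 11. The wild-type count of 5 was no higher than the most found more than 60 bp from the wild-type peak, also 5. The additional mutant calls inside the genes were among the matches at 1846 bp. The call at 428443 in PHO3 lay 1828 bp from the strong PHO5 call at 430271. The one at 429881 in PHO5 lay 1826 bp from the PHO3 call at 428055. These distances differed from 1846 bp by -18 and -20 bp, at the edge of the 20 bp allowed. That offset was chosen for its number of matches, these included, so the fit gives no separate support for either call. Occupancies at matched positions were close in some cases and not in others. In wild type the PHO3 call at 427912 had 0.455 and the PHO5 call at 429764 had 0.468, and the calls at 428502 and 430351 had 0.429 and 0.439. The wild-type PHO3 call at 428216 had 0.626 and its PHO5 counterpart at 430064 had 0.285. In the mutant the calls at 428522 and 430372 had 0.323 and 0.341, while those at 428838 and 430676 had 0.180 and 0.492.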

How the data were processed

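Chromatin was mapped in 2 libraries, 1 from fun30 deletion and 1 from wild-type cells of strain BY4741, grouped by the genotype in the labels. The submitters' processing notes name Bowtie 0.12.7 as a tool. No source used here gives the genome build, the caller, the depth or the scaling. Per the file headers, each deposited file lists calls with chromosome, centre, width (other units, in bp) and an occupancy signal, and the authors' signal has nearly the same distribution in both libraries. Positions are those of the deposited files; the gene bounds are approximate. The R64 gene table gave gene names, locus tags and neighbours only, since its build was not shown to be that of the files.

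Calls on chromosomes 1 to 16 were paired when mutually nearest, with up to 73 bp between centres. A pair was shifted at 20 bp or more. A call belonged to the region that held its centre. Pairing was tested on simulated data. Every call of the stretch was accounted for; named calls lie in the promoter, flank a gap, are shifted, differ 2-fold, lack a partner or are extreme in their region. Members, lists and thresholds were chosen with earlier results of these data known. Intervals are exact (Clopper-Pearson, 95%) and cover counting error over calls only. Python 3.11.15, numpy 2.4.6, pandas 2.3.3 and scipy 1.17.1 were used. The alternatives changed pairing distance, thresholds, occupancy filters, region bounds and how calls were given to regions.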

Additional observations from a re-analysis of the deposited data

How the results depend on the processing

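No paired analysis was possible because there was 1 library per genotype and the labels give no replicate numbers. The shifted share of 42.9%, with 26.6% over all pairs, became 7.14% for shifts of 40 bp or more, where all pairs gave 8.31%. Under the other settings it ran from 38.5% to 60.7%. The lowest was for pairing up to 50 bp, where all pairs gave 23.6%. The highest was for shifts of 10 bp or more, where all pairs gave 49.4%. The number of pairs with a 2-fold difference, 1, became 8 at 1.5-fold; both moves follow from the thresholds. The log2 ratio of summed occupancy at PHO3, 0.07, became -0.085 for the mean per call, because the mutant had 10 calls and wild type 9. At the PHO5 promoter the ratio ran from -0.37 with bounds 40 bp higher to -0.04 with calls above the lower quartile of occupancy, and at PHO5 from 0.01 to 0.20. In 27 of 30 settings the direction was kept, shares stayed within their counting interval, and the ratio of sums itself (not its log2) and the median displacement moved by less than 1.5 times. Some of the 27 returned the main value unchanged, such as pairing up to 100 bp and moved bounds at PHO3. The promoter's mean per call had to do so, with 5 calls in both libraries. The count of 27 is therefore no measure of how firm the results are. Calls without a partner, 5 in the mutant and 0 in wild type, became 7 and 2 with pairing up to 50 bp. At that distance 18.5% of all mutant and 18.3% of all wild-type calls had none. Alternatives for the call surplus, the PHO3 to PHO5 matches and the narrowed PHO3 pairs were chosen after the data were seen. The surplus of 5 mutant calls became 2 above the lower quartile of occupancy and -3 above the median. Matches of PHO3 to PHO5 calls, 14, became 7 within 10 bp and 16 within 30 bp. Narrowed PHO3 pairs, 5 of 9 at 20 bp, stayed 5 at 10 bp and became 3 at 30 bp. Over all pairs the narrowed share was 20.6% at 20 bp, 30.1% at 10 bp and 12.6% at 30 bp. Depth is unknown, so no limit of detection is given beyond the lowest listed occupancy.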
